A study of Procambarus virginalis with 6 samples.

Results

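Single-cell RNA sequencing of crayfish hemocytes yielded 16 features that met a rule for a lower level in every *Dnmt1* knockdown (KD) animal, of 4966 features with a sufficient level and 72982 features in all. For this rule, the UMIs (unique molecular identifiers, each standing for 1 captured transcript) of all cells with 100 to 2000 detected features were summed in each animal and divided by the total of the library, giving CPM (UMIs per 1000000 UMIs of the library). A feature was kept if its mean over the 6 libraries was at least 10 CPM, and it became a member of the list if its lowest control level was at least 1.5 times its highest KD level. The members were thus chosen by the KD against control contrast itself, so that their levels in the 2 groups are given below as a description, without a test.

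The KD group consisted of 3 marbled crayfish (*Procambarus virginalis*), KD1 to KD3, that had received double-stranded RNA against *Dnmt1*, and the control group of 3 crayfish, Ctrl1 to Ctrl3, that had received double-stranded RNA against GFP, a jellyfish gene that the crayfish lack. In both groups the RNA was injected into the hemolymph on consecutive days, and hemolymph was drawn at 28 days post injection (dpi), so that injection, RNA interference and time were shared by KD and control animals. All animals belong to 1 clonal, parthenogenetic species. The injected RNA was not directed at a cell type, and the extent of the knockdown in these animals and in each hemocyte type was not measured here. The libraries were made on the 10X Genomics platform from cells of 1 animal each.

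Dnmt1 is the maintenance DNA methyltransferase, which copies methylation marks to the new strand after DNA replication. In crustaceans and many other invertebrates, methylation lies mainly in the bodies of broadly expressed genes. Hemocytes are the circulating immune cells of crustaceans and comprise hyaline, semigranular and granular cells, which differ in phagocytosis and in the release of antimicrobial and melanization factors from granules.

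The features carry identifiers only, made of a contig name and a number, and the files do not pair them with gene names. For this reason no gene name, function or sequence is given for a member, the level of *Dnmt1* was not analysed here, and cell clusters carry numbers instead of cell type names. Many identifiers end in "covsplit" with a piece number, and identifiers with the same stem and another piece number are called pieces of that stem here. What the pieces represent is not given in the sources used here.

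Depth differed widely between the animals. The kept cells numbered 881, 635 and 2869 in KD1, KD2 and KD3, against 5318 and 1196 in Ctrl1 and Ctrl2 and the fewest of all libraries in Ctrl3. They held 188578 UMIs in KD2, the shallowest library, and up to 2413375 UMIs in KD3, so that a single UMI amounted to 5.30 CPM in KD2 and to 0.414 CPM in KD3. The median number of UMIs per cell lay between 223 in KD2 and 1258 in KD1. The 10 most counted features took between 21.4% of the UMIs in KD1 and 46.8% in KD3, and 39.1% in Ctrl1. TMM factors, by which edgeR corrects library sizes for such differences, were 0.44 in KD3 and 0.50 in Ctrl1 but between 1.38 and 1.6 in the other 4 libraries. Several libraries also shared cell barcodes, with 227 barcodes in common between KD2 and KD1, 238 between KD2 and Ctrl3 and 72 between KD2 and Ctrl2, whereas Ctrl1 shared none. In KD1, KD2, Ctrl2 and Ctrl3, 25.5%, 48.4%, 6.08% and 36.6% of the barcodes occurred in another library. Whether cells or reads passed between these libraries was not tested, so that they may not be independent samples in the comparisons below. Leaving each shared barcode out of the library in which it had fewer UMIs removed 209 of the 635 kept cells of KD2, and the rule then found 13 features, all of them members.

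Of the 4966 features, the 16 members made up 0.322%. The same limits in the opposite direction, with the lowest KD level at least 1.5 times the highest control level, were met by 4 features (0.0805%). If any gap between the groups was accepted, every KD animal lay below every control animal for 80 features (1.61%) and above every control animal for 36 features (0.725%). Since the rule used this contrast, nothing is read from these shares.

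**Figure D1:**
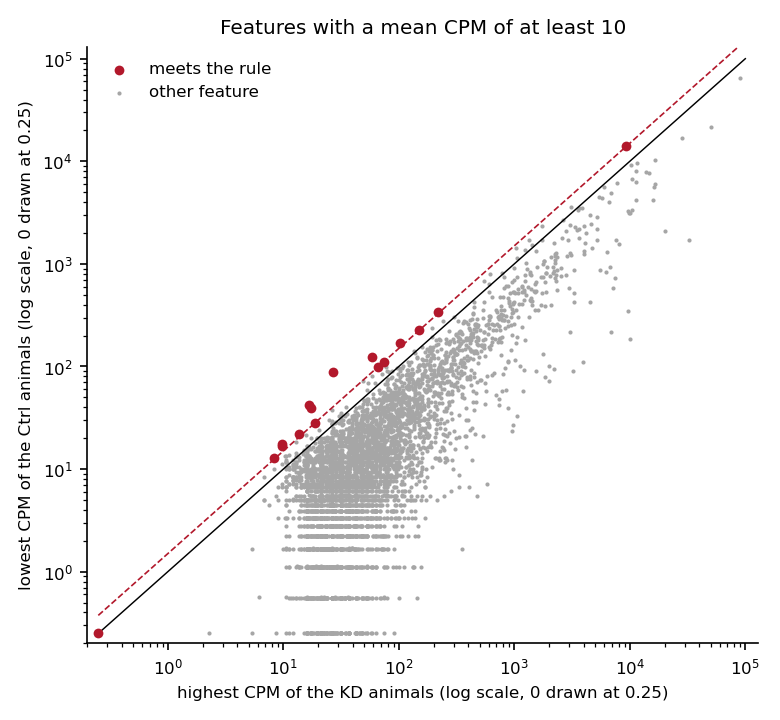
Each point is 1 of the 4966 features with a mean of at least 10 CPM, at its highest level among the 3 KD animals (horizontal axis, CPM) and its lowest level among the 3 control animals (vertical axis, CPM), both on log scales with 0 drawn at 0.25. The black line marks equal levels and the dashed line the 1.5-fold limit of the rule. The members (red) with UMIs in every control lie on or above the dashed line, 7 of them with a gap between 1.5 and 1.6 times, and the member at the lower left corner has 0 UMIs in every KD animal and in 2 control animals.

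1 of the 16 members met the rule only in a formal sense. WNGS01004946.327443_0_covsplit had 0 UMIs in KD1, KD2 and KD3, and 317 UMIs (175.1 CPM) in Ctrl1 but 0 UMIs in Ctrl2 and Ctrl3. A control level of 0 is not below 1.5 times a KD level of 0, so the feature passed, although 5 of the 6 libraries do not differ from each other. A count of 0 allows up to 3 UMIs, which equals 15.9 CPM in KD2 and 5 CPM in Ctrl3. It is the only member with no UMIs in a control, and the descriptions below cover the other 15 members (0.302% of the features), which had UMIs in all 3 controls.

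The 15 members spanned a wide range of levels. Their median level over all libraries was 87.1 CPM, against 25.2 CPM for all 4966 features, with 7 members above 100 CPM and 7 below 40 CPM. On the log2 scale, the ratio of the mean KD to the mean control level had a median of −1.72 and ranged from −3.58 to −1.01, while its median over the 4965 features with UMIs in both groups was 0.0031. Together, the 16 members contributed 0.804%, 0.997% and 0.981% of the UMIs of KD1, KD2 and KD3, against 2.57%, 2.16% and 1.54% in Ctrl1, Ctrl2 and Ctrl3.

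**Figure D2:**
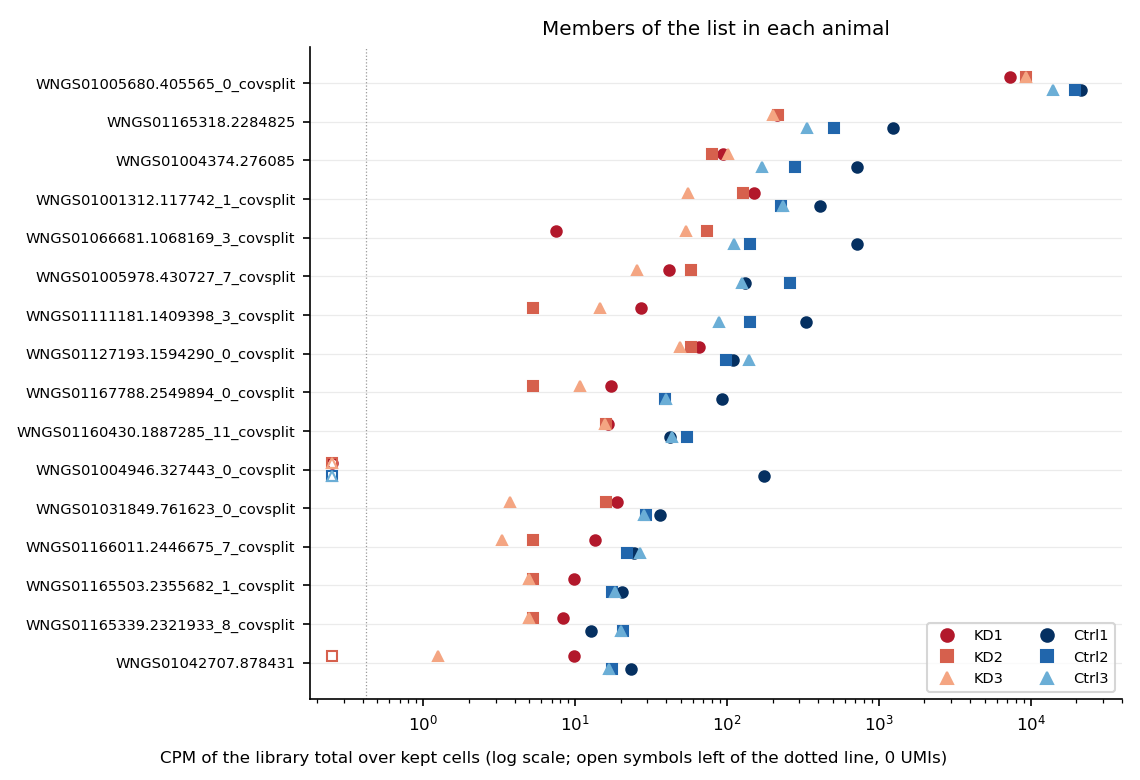
Level of each of the 16 members in the 6 animals, in CPM of the library total on a log scale, with KD animals (red tones) drawn above control animals (blue tones) in each row and open symbols for 0 UMIs. In the 15 rows other than that of WNGS01004946.327443_0_covsplit, all red symbols lie to the left of all blue ones, and in 10 of them Ctrl1 lies farthest to the right.

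A single feature dominated the list. WNGS01005680.405565_0_covsplit held 89.3% of the 130431 UMIs of all members, and only 6 features had a higher mean level in these hemocytes. It had 7342, 9301 and 9259 CPM in KD1, KD2 and KD3, against 21587, 19760 and 14035 CPM in Ctrl1, Ctrl2 and Ctrl3. The KD animals therefore lay close together, at 8634 ± 1119 CPM, and below all controls, at 18461 ± 3940 CPM (SD, n = 3 each), with a log2 ratio of −1.10. Its lowest control, Ctrl3, was 1.51 times its highest KD animal, KD2, so that it was one of the members nearest to the limit.

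In 4 of the 6 libraries, a few cells held a large share of this feature. In KD1, KD2 and KD3, the 10 cells with the most of its UMIs held 28.9%, 39.3% and 4.93% of all its UMIs, against 3.51%, 19.7% and 34.2% in Ctrl1, Ctrl2 and Ctrl3. 1 cell of Ctrl3 alone had 1285 of its UMIs, and 1 cell of Ctrl2 had 856. When the 10 cells were left out of each library, a calculation added after the data had been seen, the levels were 5371, 5957 and 8937 CPM in KD1, KD2 and KD3, against 20913, 16390 and 9726 CPM in Ctrl1, Ctrl2 and Ctrl3. The order of the groups was then the same, but the lowest control was only 1.09 times the highest KD animal, and the feature would not have met the rule.

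The next 4 members by level were highest in Ctrl1. WNGS01165318.2284825 had 214, 217 and 202 CPM in KD1, KD2 and KD3, against 1242, 505 and 338 CPM in Ctrl1, Ctrl2 and Ctrl3. WNGS01004374.276085 had 94.8, 79.5 and 102 CPM in KD1, KD2 and KD3, against 717, 280 and 170 CPM in Ctrl1, Ctrl2 and Ctrl3. For both, the 3 KD animals differed little from each other, with an SD of 8.16 and 11.6 CPM, while the controls had an SD of 481 and 289 CPM. Since the rule caps KD levels but not control levels, nothing is read from this contrast. The log2 ratios were −1.72 for the first and −2.08 for the second, and without Ctrl1 they were only −1.0 and −1.29.

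WNGS01001312.117742_1_covsplit had 150, 127 and 55.1 CPM in KD1, KD2 and KD3, against 413, 227 and 235 CPM in Ctrl1, Ctrl2 and Ctrl3. WNGS01066681.1068169_3_covsplit had 7.53, 74.2 and 53.5 CPM in KD1, KD2 and KD3, against 720, 142 and 112 CPM in Ctrl1, Ctrl2 and Ctrl3. The first had its lowest level in KD3 and the second in KD1, so that the KD animals did not share an order. The second had the smallest gap between the groups among all members, at 1.504 times, because KD2 with its 14 UMIs came near to Ctrl3 with its 67 UMIs. Its log2 ratio of −2.85 was −1.49 without Ctrl1.

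The largest gaps were found among members of intermediate level. WNGS01111181.1409398_3_covsplit had 27.1, 5.30 and 14.5 CPM in KD1, KD2 and KD3, against 332, 142 and 88.3 CPM in Ctrl1, Ctrl2 and Ctrl3. Its lowest control was 3.26 times its highest KD animal, and its log2 ratio of −3.58 was the most negative of the list, but it was −2.88 without Ctrl1 and −4.24 without KD1. WNGS01160430.1887285_11_covsplit had 16.6, 15.9 and 15.7 CPM in KD1, KD2 and KD3, against 42.5, 54.5 and 43.3 CPM in Ctrl1, Ctrl2 and Ctrl3, and here both groups were tight, with a gap of 2.57 times. WNGS01167788.2549894_0_covsplit had 17.3, 5.30 and 10.8 CPM in KD1, KD2 and KD3, against 92.8, 39.3 and 40 CPM in Ctrl1, Ctrl2 and Ctrl3. WNGS01005978.430727_7_covsplit had 41.4, 58.3 and 25.7 CPM in KD1, KD2 and KD3, against 131, 260 and 125 CPM in Ctrl1, Ctrl2 and Ctrl3, and was highest in Ctrl2. These were the only 4 of the 15 members whose lowest control was at least 2 times the highest KD animal.

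WNGS01127193.1594290_0_covsplit had the group means nearest to each other as a ratio, with 65.5, 58.3 and 49.3 CPM in KD1, KD2 and KD3, against 110.5, 98.9 and 140 CPM in Ctrl1, Ctrl2 and Ctrl3, and a log2 ratio of −1.01. It was one of 2 members with their highest control level in Ctrl3.

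The remaining 5 members were low and rested on few UMIs. WNGS01031849.761623_0_covsplit had 25, 3 and 9 UMIs in KD1, KD2 and KD3 (18.8, 15.9 and 3.73 CPM), against 66, 52 and 17 UMIs in Ctrl1, Ctrl2 and Ctrl3 (36.5, 29.2 and 28.3 CPM). WNGS01166011.2446675_7_covsplit had 18, 1 and 8 UMIs in KD1, KD2 and KD3 (13.5, 5.30 and 3.31 CPM), against 44, 39 and 16 UMIs in Ctrl1, Ctrl2 and Ctrl3 (24.3, 21.9 and 26.7 CPM). In both, KD1 was the highest KD animal and KD3 the lowest. WNGS01165503.2355682_1_covsplit had 13, 1 and 12 UMIs in KD1, KD2 and KD3 (9.78, 5.30 and 4.97 CPM), against 37, 31 and 11 UMIs in Ctrl1, Ctrl2 and Ctrl3 (20.4, 17.4 and 18.3 CPM). WNGS01165339.2321933_8_covsplit had 11, 1 and 12 UMIs in KD1, KD2 and KD3 (8.28, 5.30 and 4.97 CPM), against 23, 37 and 12 UMIs in Ctrl1, Ctrl2 and Ctrl3 (12.7, 20.8 and 20 CPM). WNGS01042707.878431 had 13, 0 and 3 UMIs in KD1, KD2 and KD3 (9.78, 0 and 1.24 CPM), against 42, 31 and 10 UMIs in Ctrl1, Ctrl2 and Ctrl3 (23.2, 17.4 and 16.7 CPM). Among these 5 members the controls lay close together, but each KD2 level stood for at most 3 UMIs. Their log2 ratios could turn on 1 animal: that of WNGS01042707.878431 was −2.38, but −4.94 without KD1 and −1.79 without KD2, and that of WNGS01166011.2446675_7_covsplit was −1.72, but −2.5 without KD1.

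Exact 95% Poisson intervals, which cover counting error only, separated the lowest control from all 3 KD animals in 5 of the 15 members, namely WNGS01005680.405565_0_covsplit, WNGS01004374.276085, WNGS01001312.117742_1_covsplit, WNGS01111181.1409398_3_covsplit and WNGS01167788.2549894_0_covsplit. The rule used these same levels, and the intervals were separate for 12 of the 4966 features (0.242%), so that nothing is read from the count. In KD2, 8 members had 3 or fewer UMIs. The limit itself was narrow, because 7 of the 15 members had a gap between 1.5 and 1.6 times. Just inside lay WNGS01005680.405565_0_covsplit at 1.509, WNGS01031849.761623_0_covsplit at 1.506 and WNGS01066681.1068169_3_covsplit at 1.504. Just outside lay WNGS01016626.654732_0_covsplit at 1.478, WNGS01001312.134735_0_covsplit at 1.425 and WNGS01142304.1694566_1_covsplit at 1.420.

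In a fit over all features, edgeR's quasi-likelihood test with Benjamini-Hochberg adjustment called 0 of 7024 features between KD and control animals (0%), and none of the 15 members that passed its filter on low counts was called. At an unadjusted p under 0.05, edgeR counted 120 of the 7024 features. DESeq2, run without that filter, also called 0 features, with 257 of 36517 at an unadjusted p under 0.05.

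Ctrl1 was the highest control for 10 of the 15 members, Ctrl2 for 3 and Ctrl3 for 2, whereas Ctrl1 was the highest control for 11.3% of the 4966 features, Ctrl2 for 49.3% and Ctrl3 for 39.4%. These shares are not a basis for comparison, because a feature could meet the rule only if Ctrl1 was not low. Among KD animals, KD1 was the highest for 10 members, KD2 for 4 and KD3 for 1, against 59.7%, 33.4% and 6.81% of all features. Ctrl1 was also the library with the most cells and one of the 2 libraries with a low TMM factor, and the part of either in these levels was not tested. Without Ctrl1, the rule found 52 features, among them 14 of the 15 members.

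The summed level of the members was 8036, 9975 and 9806 CPM in KD1, KD2 and KD3, against 25679, 21615 and 15437 CPM in Ctrl1, Ctrl2 and Ctrl3, with a log2 ratio of −1.17. Without WNGS01005680.405565_0_covsplit, the other 15 members summed to 694, 673 and 547 CPM in KD1, KD2 and KD3, against 4093, 1855 and 1402 CPM in Ctrl1, Ctrl2 and Ctrl3, with a log2 ratio of −1.94. The rule fixes the direction of both ratios. Without the leading member, the KD animals lay closer together, at 638 ± 79.6 CPM, than the controls, at 2450 ± 1441 CPM (SD, n = 3 each). The rule caps KD levels but not control levels, and Ctrl1 stood above the other controls, so that nothing is read from these spreads.

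Scaling mattered for the separate members. With TMM-scaled library sizes, 9 of the 15 members had every KD animal below every control animal, as did 117 of 4628 features (2.53%), and 11 features met the rule (0.238%), of which 6 were members. The leading member was then 0.48 times as high in its lowest control as in its highest KD animal, so that the groups overlapped, although the mean of KD stayed below that of the controls for each of the 15 members. When all libraries were thinned to the UMI total of KD2, 10 of the 15 members had every KD animal below every control animal, as did 81 of 4984 features (1.63%), and 4 of the 15 still reached 1.5 times. The rule then found 30 features (0.602%), of which only 5 were members.

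To describe which cells expressed the members, the 11521 kept cells were clustered jointly, and the clusters were numbered after those found in Ctrl1 alone, by where the majority of their Ctrl1 cells belonged. Cluster 0 was the largest in each library and held between 74.7% and 77.3% of the KD cells and between 71.0% and 83.1% of the control cells. Cluster 2 held 11.1%, 11.5% and 23.5% of the cells in KD1, KD2 and KD3, against 14.2%, 15.3% and 12.7% in Ctrl1, Ctrl2 and Ctrl3. The features that led clusters 0, 1 and 2 in Ctrl1 in earlier results were highest in these clusters in all 6 libraries. This did not hold for cluster 3. WNGS01092210.1242857 had 11221 CPM in cluster 3 of Ctrl1 but 523 CPM in that of Ctrl2. WNGS01092210.1271499 had 4477 CPM in cluster 3 of Ctrl1 but 0 CPM in that of KD2, Ctrl2 and Ctrl3. Cluster 3 may therefore not hold the same cells in each library. Clusters 1 and 3 were small, with only 2 cells of cluster 3 in KD2 and 2 in Ctrl3. Since the cells were clustered on these same counts, the distribution over clusters is given without a test.

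The members fell into a smaller group with its highest level in cluster 2 and a larger group spread like most other UMIs. WNGS01005680.405565_0_covsplit had its highest level in cluster 2 in every animal, with 27209, 24118 and 14413 CPM in cluster 2 of KD1, KD2 and KD3, against 51270, 51331 and 38630 CPM in cluster 2 of Ctrl1, Ctrl2 and Ctrl3. In the controls, cluster 2 held 65.4% of its UMIs on average, but 25.6% of all UMIs. WNGS01005978.430727_7_covsplit had a like distribution, with 68.2% of its control UMIs in cluster 2. WNGS01127193.1594290_0_covsplit and WNGS01167788.2549894_0_covsplit, with 46.4% and 42.1% of their control UMIs in cluster 2, also had their highest level in cluster 2 in every library in which they had at least 10 UMIs, although cluster 0 held more of their control UMIs (50.7% and 57.9%).

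The other 11 members had most of their control UMIs in cluster 0. WNGS01042707.878431 was nearly restricted to cluster 0, which held 96.5% of its control UMIs, although it had only 42, 31 and 10 UMIs in Ctrl1, Ctrl2 and Ctrl3. For the remaining 10, the share of cluster 0 lay between 70.7% for WNGS01165503.2355682_1_covsplit and 84.5% for WNGS01166011.2446675_7_covsplit, while cluster 0 held 68.5% of all UMIs. Single features also had a median share of 71.4%, 80.2% and 84.8% in cluster 0 of Ctrl1, Ctrl2 and Ctrl3, so that these members were distributed much like an average feature.

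**Figure D3:**
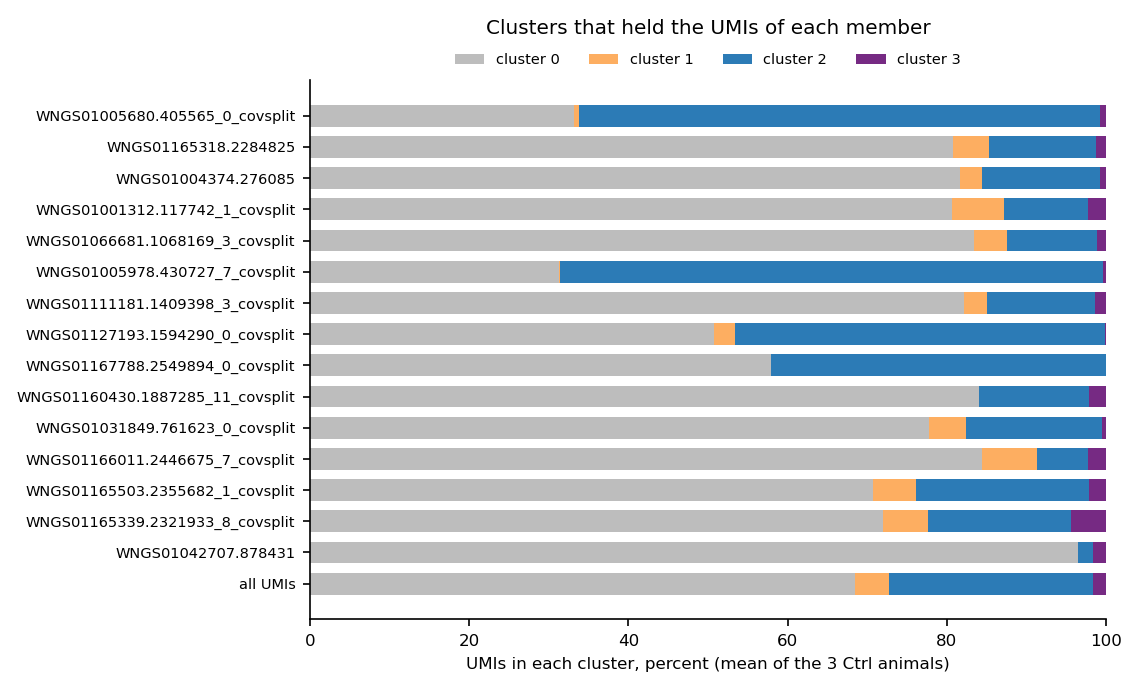
Share of the UMIs of each of the 15 members found in each of the 4 clusters (horizontal axis, percent, mean of the 3 control animals), with the share of all UMIs in the bottom row. Of the 15 members, 4 have over 40% of their UMIs in cluster 2 (blue), the leading member among them with 65.4%, while the others have most of theirs in cluster 0 (grey).

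The summed level of the list was lower in cluster 0 than in the other cells, with a log2 ratio of −1.81 ± 0.32 (SD, n = 6 libraries), and 1 member decided this value. Without WNGS01005680.405565_0_covsplit, the log2 ratio was 0.37 ± 0.45 and lay between −0.08 in KD1 and 1.04 in KD3. The sign of the ratio therefore differed between animals once the leading member was left out.

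The lower level in KD animals was also present within clusters. In cluster 0, all 15 members had every KD animal below every control animal, as did 112 of the 5291 features tested there (2.12%). These cells are a large part of those the rule was applied to, so that the count is a description. WNGS01005680.405565_0_covsplit had 3847, 4080 and 5065 CPM in cluster 0 of KD1, KD2 and KD3, against 9415, 8640 and 7980 CPM in cluster 0 of Ctrl1, Ctrl2 and Ctrl3, with a gap of 1.58 times. WNGS01005978.430727_7_covsplit, with most of its UMIs in cluster 2, had 6.31, 8.26 and 10.0 CPM in cluster 0 of KD1, KD2 and KD3, against 50.6, 109 and 68.3 CPM in cluster 0 of Ctrl1, Ctrl2 and Ctrl3. Its gap was 5.05 times in cluster 0, against 2.14 times over all cells, but its levels in cluster 0 rested on only 6, 1 and 13 UMIs in KD1, KD2 and KD3.

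Within cluster 2, all 15 members had a lower mean in KD than in control animals, and for 9 of them every KD animal lay below every control animal, as for 64 of the 3253 features with at least 10 CPM there (1.97%). WNGS01005978.430727_7_covsplit had 224, 193 and 45.2 CPM in cluster 2 of KD1, KD2 and KD3, against 333, 690 and 356 CPM in cluster 2 of Ctrl1, Ctrl2 and Ctrl3. WNGS01167788.2549894_0_covsplit had 36.6, 19.3 and 14.8 CPM in cluster 2 of KD1, KD2 and KD3, against 200.1, 55.2 and 48.6 CPM in cluster 2 of Ctrl1, Ctrl2 and Ctrl3. WNGS01127193.1594290_0_covsplit had 224, 116 and 81.2 CPM in cluster 2 of KD1, KD2 and KD3, against 150.1, 236 and 243 CPM in cluster 2 of Ctrl1, Ctrl2 and Ctrl3, and was the only one of the 4 members with their highest level in cluster 2 whose groups overlapped there. KD3 was the lowest animal for all 4 members, and it had the largest share of its cells in cluster 2. These levels are shares of the UMIs of cluster 2, of which another feature, WNGS01163813.2084876, took an unequal part. It had 204474, 358443 and 414169 CPM there in KD1, KD2 and KD3, against 49814, 151337 and 306857 CPM in Ctrl1, Ctrl2 and Ctrl3. Its part in the levels of the members was not tested.

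In the smaller clusters the counts were too low for most members. Cluster 1 held 252 UMIs of WNGS01005680.405565_0_covsplit in KD animals and 597 in control animals, with levels of 850.2, 781 and 4751 CPM in KD1, KD2 and KD3, against 4008, 1285 and 1111 CPM in Ctrl1, Ctrl2 and Ctrl3. KD1 and KD2 lay below all controls and KD3, with 38 cells in this cluster, above them, so that the groups overlapped. WNGS01166011.2446490, which led cluster 1 of Ctrl1 in earlier results, had 651 CPM in cluster 1 of KD3. Its level there was 4625 to 7455 CPM in the other libraries. The KD3 cells of cluster 1 may therefore not match those of the other libraries. 3 members had a higher mean in KD than in control animals in cluster 1, each from 5 or fewer KD UMIs. For cluster 3, only 2 KD and 2 control animals had at least 10 cells.

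Barcodes with fewer than 100 features were not used by the rule and form a separate part of the same libraries. They numbered 13, 364 and 139 in KD1, KD2 and KD3, against 2760, 5 and 28 in Ctrl1, Ctrl2 and Ctrl3. WNGS01005680.405565_0_covsplit had 98, 1237 and 1300 UMIs there in KD1, KD2 and KD3, against 6272, 23 and 176 UMIs in Ctrl1, Ctrl2 and Ctrl3. In CPM of these barcodes, this amounted to 12582, 17416 and 17432 in KD1, KD2 and KD3, against 9473, 8050 and 11703 in Ctrl1, Ctrl2 and Ctrl3. The order of the groups was the opposite of that in the kept cells, with a mean of 15810 ± 2796 CPM in KD and 9742 ± 1841 CPM in control animals (SD, n = 3 each) and every KD animal above every control animal. In a two-sided exact permutation test the difference had p = 0.1, which is the smallest p that 3 against 3 animals allow. Every KD animal lay above every control animal for 26 of the 1979 features with at least 10 CPM in these barcodes (1.31%). The counting interval of KD1, from 10215 to 15333 CPM, contained the level of Ctrl3, so that their gap lay within counting error. It also overlapped the interval of Ctrl2, from 5103 to 12080 CPM.

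These barcodes held 71027 UMIs in KD2 and 74577 in KD3, against 662068 in Ctrl1, while KD1, Ctrl2 and Ctrl3 had at most 15039 UMIs each. For the other members, only KD2, KD3 and Ctrl1 were therefore deep enough to be described. WNGS01165318.2284825 had 42.2 and 67.0 CPM in KD2 and KD3, against 598 CPM in Ctrl1. WNGS01004374.276085 had 28.2 and 26.8 CPM in KD2 and KD3, against 400.3 CPM in Ctrl1. For these 2 members, Ctrl1 lay above KD2 and KD3, as in the kept cells. The other 3 members with their highest level in cluster 2 had few UMIs. WNGS01127193.1594290_0_covsplit had 84.5 and 80.5 CPM in KD2 and KD3, against 64.9 CPM in Ctrl1. WNGS01167788.2549894_0_covsplit had 14.1 and 13.4 CPM in KD2 and KD3, from 1 UMI each, against 12.1 CPM in Ctrl1 from 8 UMIs. WNGS01005978.430727_7_covsplit had 98.6 and 0 CPM in KD2 and KD3, against 24.2 CPM in Ctrl1. At these counts, KD2 lay above Ctrl1 for all 3, as for the leading member, and KD3 for 2 of them. This order was not limited to them. WNGS01031849.761623_0_covsplit, WNGS01166011.2446675_7_covsplit and WNGS01165503.2355682_1_covsplit, with most control UMIs in cluster 0, had 28.2 CPM each in KD2, from 2 UMIs. Ctrl1 had 21.1, 27.2 and 12.1 CPM of these, and KD3 had 0 CPM. The remaining members with most control UMIs in cluster 0 had KD2 below Ctrl1.

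Among the kept cells, the order of the groups for WNGS01005680.405565_0_covsplit was not the same at all depths. In barcodes with 150 to under 250 features, it had 7082, 7097 and 9097 CPM in KD1, KD2 and KD3, against 23858, 19302 and 11636 CPM in Ctrl1, Ctrl2 and Ctrl3, without overlap. In barcodes with 100 to under 150 features, KD1 had 22779 CPM, but from 9 barcodes only, while KD2 had 8015 and KD3 9299 CPM, against 20428 CPM in Ctrl1, 8371 CPM in Ctrl2 from 4 barcodes, and 19160 CPM in Ctrl3. In barcodes with 250 to under 500 features, KD2 had 17716 CPM from 46 barcodes, above all controls, while KD1 had 5704 and KD3 9951 CPM, against 14943, 12420 and 14500 CPM in Ctrl1, Ctrl2 and Ctrl3.

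**Figure D4:**
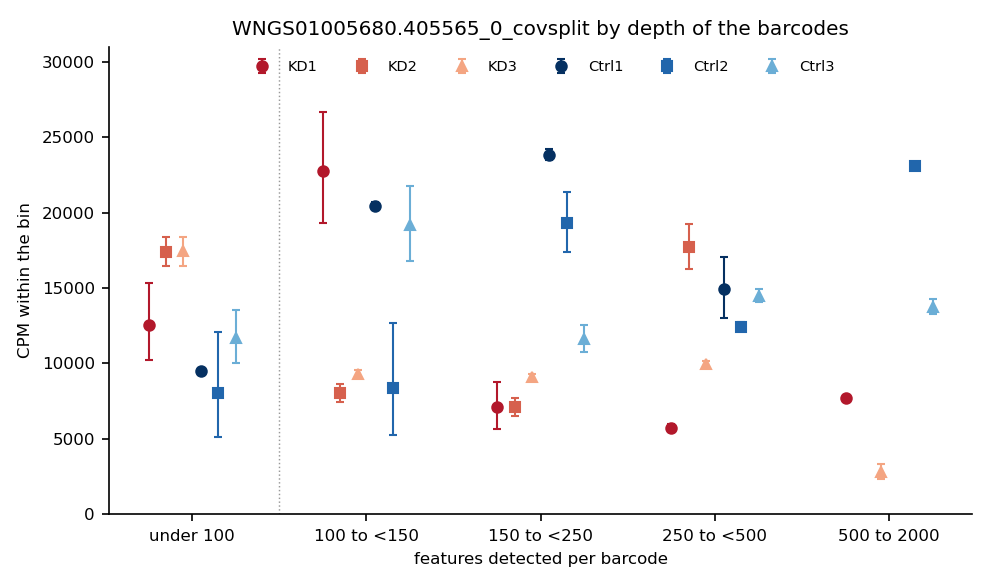
Level of WNGS01005680.405565_0_covsplit (vertical axis, CPM within the bin) in barcodes grouped by the number of detected features (horizontal axis), for the KD animals (red tones) and control animals (blue tones), with exact 95% Poisson intervals that cover counting error only. Left of the dotted line are the barcodes with fewer than 100 features, where the 3 KD animals, at 12582 to 17432 CPM, lie above the 3 control animals, at 8050 to 11703 CPM. KD2 and Ctrl1 have no barcodes with 500 or more features.

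The 16 members lay on 16 different contigs. For 13 of them the identifier ended in "covsplit", as for 85.6% of the 4966 features. 9 members had other pieces with the same stem, 28 in all, of which 6 had a mean of at least 10 CPM. None of the 28 pieces met the rule, and none of the 6 separated the groups.

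For 2 members, other pieces were more abundant than the member itself. WNGS01066681.1068169_2_covsplit had 3805, 3065 and 7469 CPM in KD1, KD2 and KD3, against 1975, 732 and 5667 CPM in Ctrl1, Ctrl2 and Ctrl3, and so had a higher mean in KD, whereas the member of this stem was lower in KD. WNGS01066681.1068169_1_covsplit had 573, 371 and 791 CPM in KD1, KD2 and KD3, against 361, 84.9 and 675 CPM in Ctrl1, Ctrl2 and Ctrl3. The groups overlapped for both pieces, and Ctrl1 was the highest library for the member but not for the other pieces.

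WNGS01111181.1409398_5_covsplit had 2587, 1013 and 1045 CPM in KD1, KD2 and KD3, against 6570, 1878 and 1793 CPM in Ctrl1, Ctrl2 and Ctrl3. WNGS01111181.1409398_2_covsplit had 15.8, 10.6 and 46.8 CPM in KD1, KD2 and KD3, against 204, 50 and 26.7 CPM in Ctrl1, Ctrl2 and Ctrl3. Both pieces had a higher mean in controls, like the member of this stem, and their highest level in Ctrl1, but KD1 overlapped the controls in the first and KD3 in the second. The counts do not show whether related pieces share reads.

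**Figure D5:**
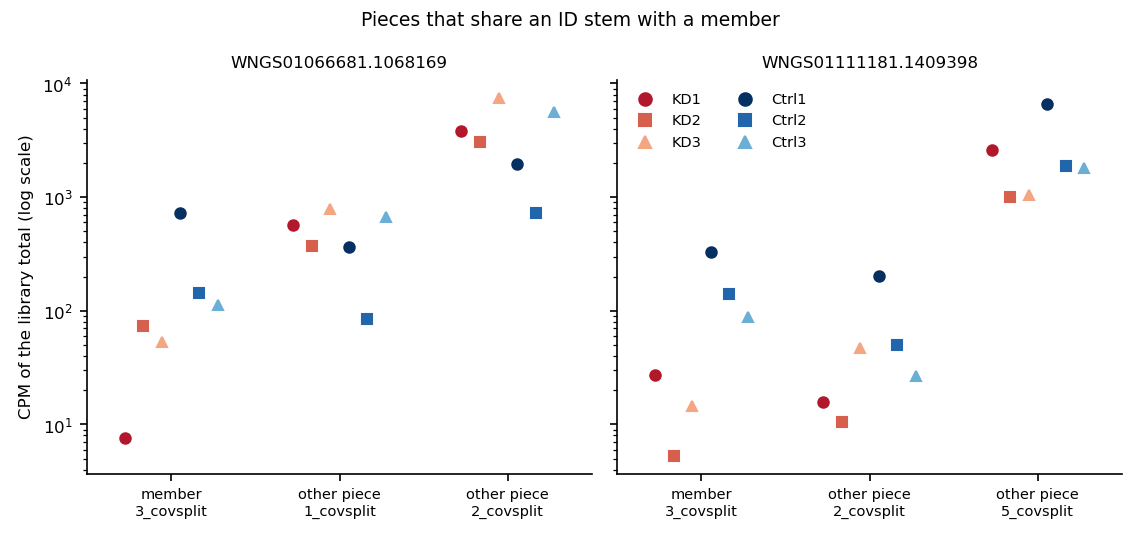
Level of 2 members and of the other pieces of their stems with a mean of at least 10 CPM (CPM of the library total, log scale), in the 3 KD animals (red tones, left) and the 3 control animals (blue tones, right). The groups are apart for both members and overlap for the 4 other pieces, and in the stem WNGS01066681.1068169 the other pieces have a higher mean in KD animals.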

How the data were processed

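Hemocytes of 3 KD and 3 control animals, sampled 28 dpi, were analysed. The authors made UMI counts with Cell Ranger (introns included, cell number not forced) and deposited them unnormalized, as whole numbers for 72982 features in each called barcode. The version is 7.0.0 in the header of the matrices and 4.0.0 in the submitters' processing notes, and the genome build and annotation are not given in the sources used here. The labels gave the groups. Cells with 100 to 2000 features were kept (11521 of 14830 barcodes), no doublets were removed, and mitochondrial counts could not be filtered because features carry no names. Counts were summed per animal and divided by the library total, with between 188578 and 2413375 UMIs per library.

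The members, lists and tests were chosen with earlier results of these data known. All members and the 3 features just outside the limit are named. Cells were clustered with Seurat 5.3.0 in R 4.3.3 (2000 variable features, anchors over 30 dimensions, 11 dimensions, resolution 0.1). The count test was the quasi-likelihood test of edgeR 4.0.16 with TMM, filterByExpr and an adjusted p threshold of 0.05, with DESeq2 1.42.0 as an alternative. The rule and the edgeR fit were run on simulated data as a check of the code only. The simulated animals varied less than these animals, so that the check does not show what either could find here. The p-values weigh the difference between the groups against the spread between animals. They treat the animals as independent, which is uncertain for KD1, KD2, Ctrl2 and Ctrl3 because of their shared barcodes. Alternatives covered the cell filter, CPM minimum, fold, scaling, thinning, shared barcodes, clustering, a replicate block and the omission of single animals. Leaving out the 10 cells richest in a member was added after seeing the data.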

Additional observations from a re-analysis of the deposited data

Results flagged for a closer look

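In barcodes with fewer than 100 features, which no comparison of the kept cells used, WNGS01005680.405565_0_covsplit averaged 15810 CPM in KD and 9742 CPM in control animals, 1.62 times as high in KD and with every KD animal above every control animal. The gap between KD1 and Ctrl3 lay within counting error. The feature was singled out because this signal in unused barcodes lay above the level in the controls.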

How the results depend on the processing

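The number of features lower in every KD animal depended on most settings. Instead of 16, the rule found 10 with each cell given equal weight, 30 (5 of them members) with all libraries thinned to the smallest, 29 at a mean of at least 5 CPM, 80 with any gap, 5 with a gap of at least 2 times and 71 in the 4 libraries that share barcodes. Leaving out 1 animal gave between 22 features without KD3 and 181 without KD1, with 28 without KD2, 52 without Ctrl1, 35 without Ctrl2 and 37 without Ctrl3. Leaving out an animal cannot narrow a member's gap, so that these counts say nothing of stability. It found between 11 and 19 features with all barcodes, at least 150 features per cell, TMM, DESeq2 size factors, no shared barcodes, cluster 0 alone or at least 20 CPM. Under the 8 settings of cells, scaling, weights and thinning, all 120 log2 ratios of single members were negative and 10 moved by more than the spread between animals. The members were chosen for lower KD levels in these same libraries, so that the negative signs say nothing of stability. Of the 15 members with UMIs in every control, 12 still reached the fold limit of the rule with no shared barcodes. This number was 5 with TMM and 4 with thinning, the lowest of the 8 settings.

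The edgeR test called 0 features under each alternative run other than the omission of the filter on low counts, where it called 14 of 36576, all lower in KD. Of these 14, 3 had UMIs in Ctrl1 only and 2 were members. The labels do not say whether animals with the same replicate number were paired. The deviations of same-numbered animals from their group means correlated at −0.173, 0.0961 and 0.107. Those of differently numbered animals correlated between −0.385 and 0.386, and these values cannot settle whether animals were paired. With the replicate block edgeR called 0 of 8599 features.

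The log2 ratio of the summed level, KD over control, was −1.17, −1.94 without the leading member, and 0.58, the opposite direction, in barcodes with fewer than 100 features. In those barcodes the leading member held most of the summed level, at 15810 CPM in KD and 9742 CPM in control animals. The other members went in either direction there, and the ratio without the leading member was not computed. In the kept cells, leaving out 1 animal gave −1.35 to −1.0. The log2 ratio of cluster 0 over the other cells was −1.81, −0.57 with labels transferred from Ctrl1, −1.38 with all libraries reduced to the cell number of the smallest, −1.13 with the members left out of the clustering features and 0.37, the opposite direction, without the leading member. Leaving out 1 animal gave −1.90 to −1.73. The cause of these shifts was not tested. Depth limits the low members most, since 1 UMI of KD2 equals 5.30 CPM.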
